A study of Mus musculus with 12 samples.

Results

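The genes of the endocannabinoid system described here were the receptor gene Cnr1 and 7 enzyme genes, Dagla, Daglb, Mgll, Abhd6, Abhd12, Napepld and Faah. The rule that selected them was their role in endocannabinoid signalling, and the choice was made with earlier results of these data known. Counts of these genes beside the share over all genes are therefore a description. Their rows were found by symbol in each of the 12 count tables, so that they made up 8 of 23282 rows, and all 8 passed the filter on low counts in every comparison. The study sequenced RNA of striatum and cortex from HD mice and their normal littermates, to compare expression between brain regions before and after disease symptoms appear. The HD mice were of the R6/2 line, which expresses the beginning of mutant human huntingtin from a transgene with its own promoter and keeps both mouse Htt genes. Post-symptomatic HD mice were 13 weeks old and pre-symptomatic HD mice were 8 weeks old, with 2 libraries for each age and region. WT littermates of 13 and 8 weeks gave 1 library for each age and region, so that the spread among WT mice within an age and region was not measured. The HD libraries whose labels carry no number are called replicate 1 here.

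Endocannabinoids are lipids that neurons make on demand. The main one, 2-arachidonoylglycerol (2-AG), is cut from diacylglycerol by diacylglycerol lipases in the postsynaptic cell and travels back to the axon terminal, where the CB1 receptor lowers transmitter release until the lipid is broken down. Anandamide, the other well-known endocannabinoid, is made and degraded by separate enzymes. In the striatum the projection neurons are known for high levels of CB1, and cortical pyramidal neurons and interneurons that release GABA carry it too.

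The libraries held between 8814386 and 12091201 counts, and each of the 8 genes had at least 19 counts in each library. Levels are given as CPM, counts relative to the size of the library after TMM scaling. The QuantSeq kit reads transcripts at their 3′ ends, so a long gene gains no reads from its length. Comparisons of CPM between genes still depend on the annotation and counting rule, which are not given in the sources used here. The reads carried no molecular identifiers, so precision from the counts covers counting error only. The 2 replicates of an HD group differed beyond sampling noise in all 4 HD groups. The Y-linked transcripts and Xist placed replicate 1 of each HD group as male and replicate 2 as female, and placed the WT libraries of 13 weeks as female and those of 8 weeks as male. The precursor of ribosomal RNA (Rn45s) took from 10.5% to 15.2% of the counts in HD libraries and from 4.32% to 5.62% in WT libraries.

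Among the libraries, replicate 2 of pre-symptomatic HD striatum stood apart. It held a summed level of 21020 CPM for 8 oligodendrocyte markers, against 3414 to 7296 CPM in the other striatal libraries. Its 5 thalamus markers summed to 1426 CPM, against 137 to 200 CPM in the others. Its 9 markers of striatal projection neurons summed to 2309 CPM, against 7335 CPM in replicate 1 and 1386 to 1411 CPM in post-symptomatic HD striatum. The marker Drd2 had at most 4 counts in any library. Results that rest on this library are given with it and without it. In post-symptomatic HD cortex, replicate 2 held 3024 CPM of choroid plexus markers and replicate 1 held 69.4 CPM.

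The receptor gene Cnr1 lies on chromosome 4 (GRCm38, positions 33924593 to 33948831, plus strand). The start of the gene was read from RefSeq (GRCm38.p6), which listed promoters for 6 of the 8 genes, each spanning 250 bases before and 50 bases after a start site. The most upstream listed promoters of Cnr1, Mgll and Abhd6 are shown because these genes, with Dagla, were the ones whose post-symptomatic HD libraries lay below the pre-symptomatic ones in both regions. Capitals mark the GC box GGGCGG, read on either strand and without overlaps. The Cnr1 promoter is at chr4:33924014-33924313, the Mgll promoter at chr6:88724162-88724461 and the Abhd6 promoter at chr14:8002638-8002937, all on the plus strand.
Cnr1: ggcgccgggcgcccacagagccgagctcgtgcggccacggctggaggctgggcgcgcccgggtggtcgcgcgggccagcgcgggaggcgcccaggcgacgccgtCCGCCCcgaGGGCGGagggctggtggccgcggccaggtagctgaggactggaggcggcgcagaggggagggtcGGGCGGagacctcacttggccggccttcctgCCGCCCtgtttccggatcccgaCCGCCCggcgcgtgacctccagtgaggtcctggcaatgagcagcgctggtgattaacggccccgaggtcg
Mgll: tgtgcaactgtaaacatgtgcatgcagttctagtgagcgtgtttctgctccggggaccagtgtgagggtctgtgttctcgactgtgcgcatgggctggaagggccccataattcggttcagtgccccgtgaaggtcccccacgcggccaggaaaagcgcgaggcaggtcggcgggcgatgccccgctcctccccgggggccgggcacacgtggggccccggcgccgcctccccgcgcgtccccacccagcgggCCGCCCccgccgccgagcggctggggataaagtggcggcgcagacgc
Abhd6: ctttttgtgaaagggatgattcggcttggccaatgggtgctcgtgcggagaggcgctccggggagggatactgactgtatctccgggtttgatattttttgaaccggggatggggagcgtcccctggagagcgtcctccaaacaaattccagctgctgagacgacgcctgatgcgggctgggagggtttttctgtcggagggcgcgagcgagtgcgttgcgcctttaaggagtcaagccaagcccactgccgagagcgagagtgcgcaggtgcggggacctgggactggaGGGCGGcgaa
The Cnr1 window shown held 5 GC boxes, whereas those of Mgll and Abhd6 held 1 each. The other 2 listed promoters of Cnr1, one of which spans the start of the gene given above, held 0 GC boxes, and the second ones of Mgll and Abhd6 held 1 each. The listed Abhd6 windows overlap, and the GC box of the second is the same one that is marked in the first. Of all 32851 RefSeq promoters of this length, 35.7% held at least 1 GC box. The core of the cAMP response element, TGACG, was in 20.8% of all promoters, in none of these 3 windows and once in the second Mgll promoter, and the TATA box TATAAA was in 13.6% and in none of the 3 windows shown. Their GC content was 76.3%, 70.0% and 60.7%, against a median of 52.7% over all promoters. These matches are letters in a window and were not tied to any measurement of binding.

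After symptom onset, HD mice had lower levels of Mgll, Dagla and Abhd6 than before onset, taking both regions together. Mgll, the main hydrolase of 2-AG, fell by 1.16 on the log2 scale (SE 0.18, edgeR adjusted p = 0.00688). Dagla, the main synthase of 2-AG in the adult brain, fell by 0.91 (SE 0.18, edgeR adjusted p = 0.0183), and Abhd6, a hydrolase of 2-AG in the postsynaptic cell, fell by 0.73 (SE 0.14, edgeR adjusted p = 0.0179). Cnr1 was -0.81 on that scale (SE 0.22) and missed the threshold of 0.05 with an edgeR adjusted p of 0.0532. Thus 3 of 8 genes passed in the downward direction and 0 in the upward one, where 4.53% and 1.93% of the 13944 genes tested did, and the median change of the 8 genes was -0.63 against 0.00 over all genes tested. The remaining genes were at -0.29 (Daglb), -0.48 (Faah), -0.52 (Napepld) and -0.13 (Abhd12), with edgeR adjusted p of 0.423 or more. The direction of the 3 calls held under each alternative that was run.

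The calls changed with the libraries used. The number of genes called among all genes, 900 with all 8 HD libraries, ran from 211 to 1518 with 1 library left out, and the number of members called ran from 1 to 4. The Mgll call stood with any 1 of the 8 HD libraries left out, with edgeR adjusted p of at most 0.0447. The Dagla call was lost without replicate 1 (edgeR adjusted p = 0.0573) or replicate 2 (0.0571) of post-symptomatic striatum, replicate 1 of post-symptomatic cortex (0.0713), or replicate 1 (0.0604) or replicate 2 (0.0562) of pre-symptomatic cortex. The Abhd6 call was lost without replicate 2 of post-symptomatic striatum (edgeR adjusted p = 0.0527), either replicate of post-symptomatic cortex (0.0704 and 0.0786), or either replicate of pre-symptomatic cortex (0.0755 and 0.0783). Without replicate 2 of pre-symptomatic striatum, the library that stood apart, all 3 calls stood and Cnr1 joined them at -0.83 (edgeR adjusted p = 0.0462). Cnr1 also passed with DESeq2 (adjusted p = 0.0112), with no filter on low counts (edgeR adjusted p = 0.0321) and without replicate 2 of post-symptomatic cortex, at -1.08 (edgeR adjusted p = 0.0264). Without replicate 1 of pre-symptomatic striatum, the 3 calls stood, Cnr1 did not pass (-0.67, edgeR adjusted p = 0.0609) and Faah joined them at -0.79 (edgeR adjusted p = 0.00577).

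**Figure D1:**
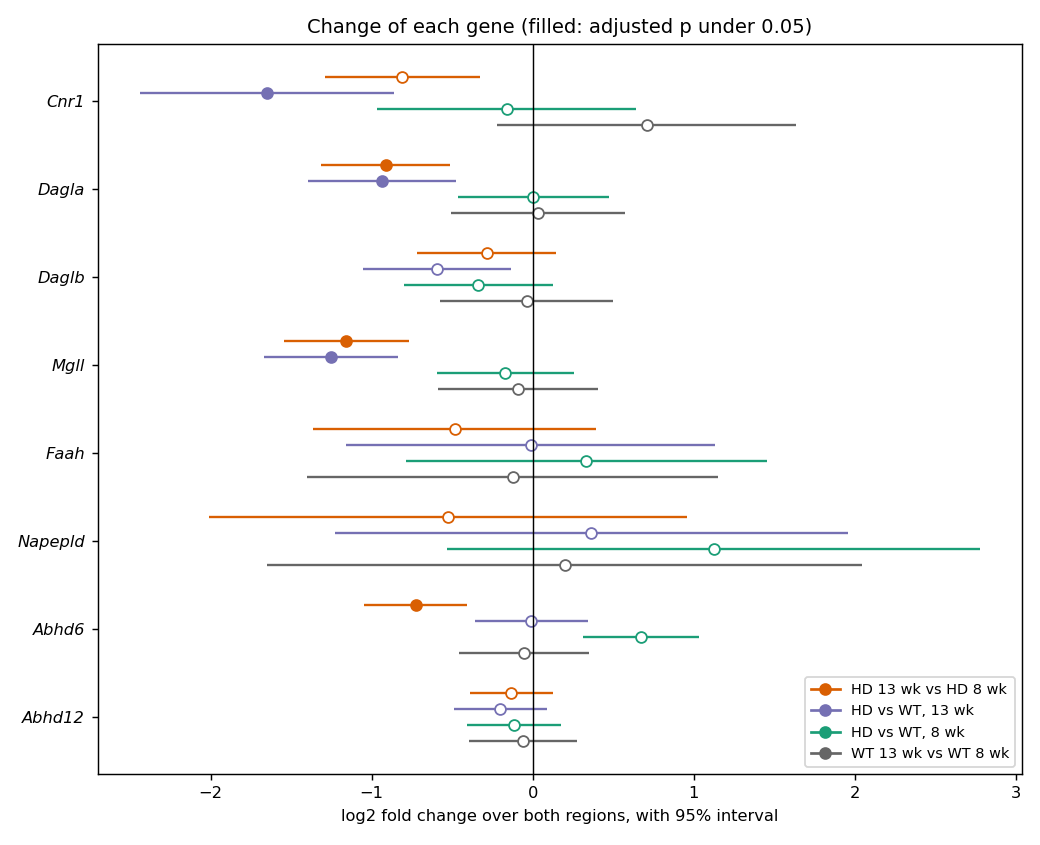
Log2 fold change of each gene over both regions (points, horizontal axis) with its 95% confidence interval (lines), for HD mice after against before onset and for 3 comparisons that involve WT mice. Filled points passed at an adjusted p under 0.05: Dagla, Mgll and Abhd6 among HD stages and Cnr1, Dagla and Mgll against WT at 13 weeks, all of them left of 0.

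Cnr1 encodes the CB1 receptor, which couples to inhibitory G proteins at axon terminals. In the striatum it measured 100.3 CPM in WT mice of 13 weeks and 54.8 CPM in WT mice of 8 weeks. Pre-symptomatic HD striatum gave 45.0 and 34.1 CPM, and post-symptomatic HD striatum gave 16.8 and 18.5 CPM. The post-symptomatic HD striatum was thus the lowest of all 8 groups and did not overlap any of them, and WT striatum of 13 weeks was the highest. In the cortex Cnr1 measured 50.9 CPM in WT mice of 13 weeks, 38.0 CPM in WT mice of 8 weeks, 46.3 and 41.2 CPM in pre-symptomatic HD mice, and 22.1 and 40.0 CPM in post-symptomatic HD mice. The pre-symptomatic HD cortex lay between the WT libraries, and of the post-symptomatic values replicate 1 lay below both and replicate 2 between them. In the order of mean levels, the pre-symptomatic HD cortex (43.8 ± 3.59 CPM, SD, n = 2), the pre-symptomatic HD striatum (39.6 ± 7.67 CPM, SD, n = 2), the younger WT cortex and the post-symptomatic HD cortex (31.0 ± 12.7 CPM, SD, n = 2) overlapped their neighbours.

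Against WT littermates of 13 weeks, post-symptomatic HD mice were lower in Cnr1, Mgll and Dagla over both regions, and no member was higher. Cnr1 was lower by 3.14-fold, a log2 change of -1.65 (SE 0.36, edgeR adjusted p = 0.0213). Mgll changed by -1.25 (SE 0.19, edgeR adjusted p = 0.00351) and Dagla by -0.93 (SE 0.21, edgeR adjusted p = 0.0209). Of the others, Faah was at -0.01 and Napepld at 0.36 (edgeR adjusted p = 0.992 and 0.823). The calls were 3 of 8 genes, where 4.26% of the 14706 genes tested were called lower and 3.1% higher. All 4 HD libraries lay below the WT library of their region for these genes and also for Daglb and Abhd12, which makes 5 of 8 genes where 22.6% of all genes did so. For Napepld all 4 lay above it. Daglb and Abhd12 also had all 4 HD libraries below WT at 8 weeks, so for them this was not particular to the later age. The shares of all genes with these last patterns are not given here, so whether they are common cannot be read from them. The 3 calls rest on the WT libraries of 13 weeks. Without the striatal one no member passed: Cnr1 was -0.96 (edgeR adjusted p = 0.346), Dagla -0.82 (0.277) and Mgll -1.23 (0.0826), and the number of genes called among all genes dropped to 29. Without the cortical one, Dagla was -1.06 (edgeR adjusted p = 0.105) and the number of genes called was 222. The Cnr1 call was also lost without replicate 1 (edgeR adjusted p = 0.0626) or replicate 2 (0.0555) of post-symptomatic striatum or without replicate 1 of post-symptomatic cortex (0.0545). With the sex read from Xist as a term, all 3 genes still passed, with edgeR adjusted p between 0.00387 and 0.0466. That term rests on the HD libraries alone, where sex follows the replicate number, because the WT libraries of each age were of 1 sex. All 3 also passed with Rn45s left out of the library totals. The Rn45s share was higher in every HD library than in every WT library. Genotype and this difference between libraries cannot be told apart, and leaving out the row does not part them.

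The distance of Cnr1 from WT mice was wider in striatum than in cortex as measured. Post-symptomatic HD striatum held 17.6% of the WT level and post-symptomatic HD cortex held 61.0%. In a fit with a mean for each of the 8 groups, added after the data were seen, the striatal difference was -2.51 (95% confidence interval -3.24 to -1.78, edgeR adjusted p = 0.0263) where 0.724% of genes passed, and the cortical one was -0.72 (edgeR adjusted p = 0.448) where 0.111% did. The difference between the regions was -1.79 (95% confidence interval -2.88 to -0.71). It did not pass over all genes (edgeR adjusted p = 1.0), where 0 genes (0%) were called and 465 had an unadjusted p under 0.05, and DESeq2 was not run on it. Each of these regional values sets 2 HD libraries against 1 WT library. In these bulk samples, fewer cells of a type and less RNA per cell cannot be told apart. The 9 markers of striatal projection neurons summed to 1386 and 1411 CPM in post-symptomatic HD striatum and to 7737 CPM in its WT library, and their part in the fall of Cnr1 was not tested.

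**Figure D2:**
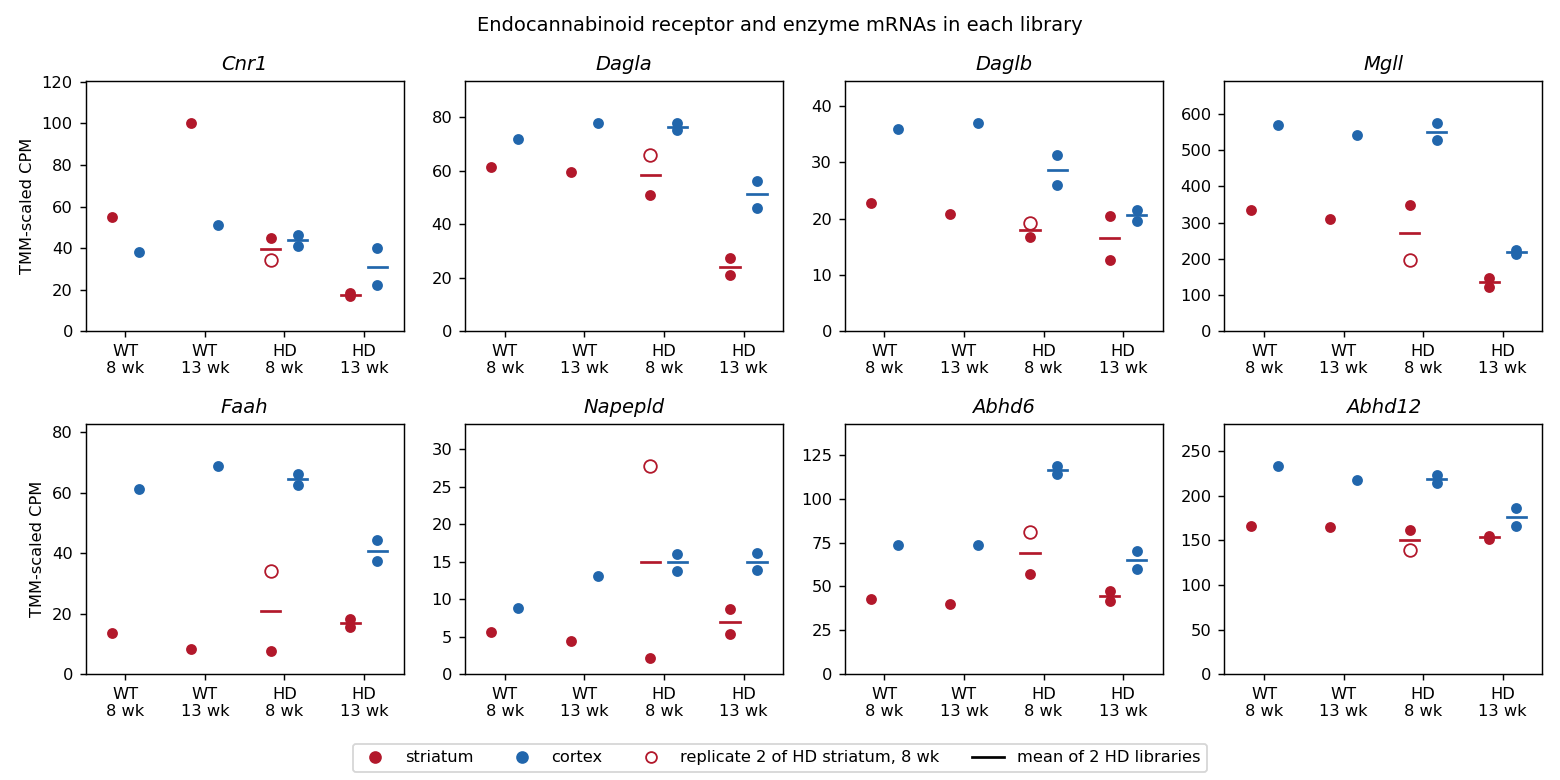
TMM-scaled CPM (vertical axes from 0, own scale for each gene) in each of the 12 libraries by genotype and age, with striatum in red and cortex in blue. Points are libraries, horizontal lines are means of 2 HD libraries, and the open circle is replicate 2 of pre-symptomatic HD striatum, which is the highest striatal library for Faah (34.2 CPM) and Napepld (27.8 CPM); Cnr1 in striatum is highest in WT mice of 13 weeks (100.3 CPM) and lowest in HD mice of that age (16.8 and 18.5 CPM).

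At the younger age no difference in Cnr1 between HD and WT mice was detected. The change was -0.16 (95% confidence interval -0.96 to 0.64, edgeR adjusted p = 0.895). Pre-symptomatic HD striatum lay below its WT library and pre-symptomatic HD cortex above it, at 72.1% and 115% of the WT levels. Cnr1 was the 1 member of 8 with both HD libraries on opposite sides of WT in the 2 regions at this age, as were 19.1% of all genes. Among WT mice, Cnr1 was 0.71 higher at 13 than at 8 weeks (SE 0.42, edgeR adjusted p = 1.0), a difference within the error. For the change with age, HD mice differed from WT mice by -1.49 (95% confidence interval -2.64 to -0.34, edgeR adjusted p = 0.399) and did not pass either. Since the WT libraries of the 2 ages also differ in sex, age and sex in WT mice cannot be told apart.

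**Figure D3:**
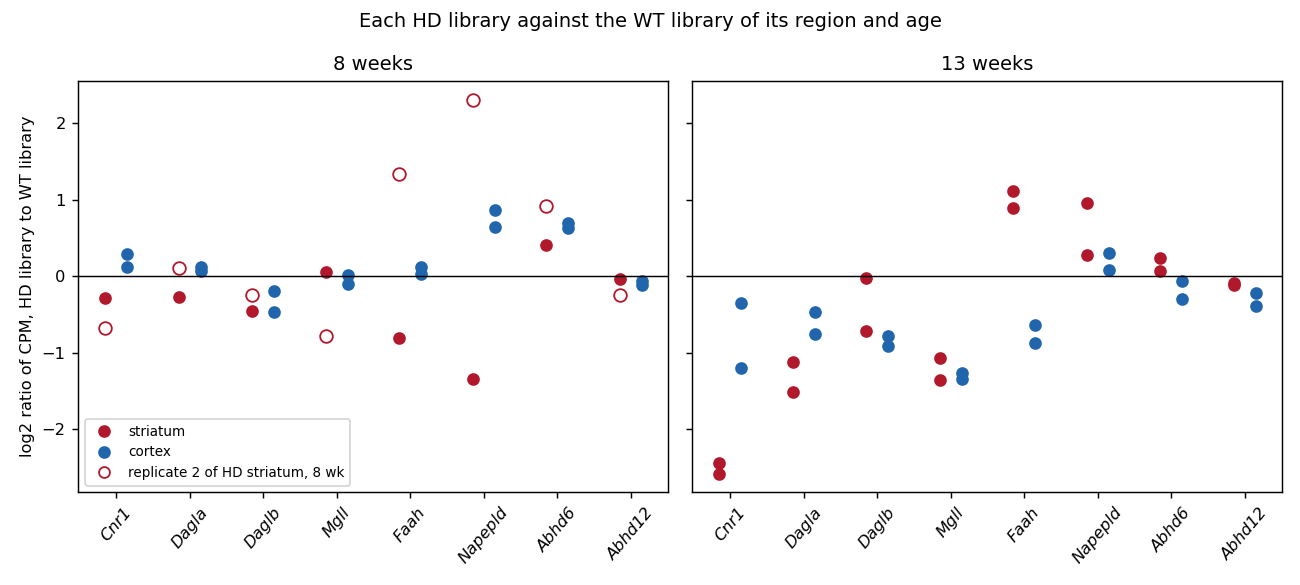
Log2 ratio of the CPM of each HD library (points) to the WT library of its region and age, at 8 weeks on the left and 13 weeks on the right, with striatum in red, cortex in blue and replicate 2 of pre-symptomatic HD striatum as an open circle. At 13 weeks every point of Cnr1, Dagla, Daglb, Mgll and Abhd12 lies below 0 and every point of Napepld above 0. At 8 weeks every point of Abhd6 lies above 0 and every point of Daglb and Abhd12 below 0. No error bars are drawn because each WT value is 1 library.

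Mgll encodes monoacylglycerol lipase, the presynaptic enzyme that clears most 2-AG in brain. Its gene is on chromosome 6 (88724412 to 88828360, plus strand). Mgll measured 213.0 and 225.5 CPM in post-symptomatic HD cortex, 575.9 and 527.0 CPM in pre-symptomatic HD cortex, and 540.8 and 568.5 CPM in WT cortex of 13 and 8 weeks. In striatum it measured 148.2 and 121.4 CPM in post-symptomatic HD mice, 347.9 and 195.4 CPM in pre-symptomatic HD mice, and 310.8 and 335.2 CPM in WT mice of 13 and 8 weeks. The post-symptomatic HD libraries were below every other library of their region. They held 39.8% of the pre-symptomatic mean in cortex and 49.6% in striatum, and 40.5% and 43.4% of the WT level of 13 weeks. In pre-symptomatic striatum the lower value, 195.4 CPM, belonged to the library rich in oligodendrocyte and thalamus markers. Tested by region, Mgll was -1.34 in cortex (edgeR adjusted p = 0.0607) and -0.97 in striatum (edgeR adjusted p = 0.153), and without that library -1.32 and -1.36, with edgeR adjusted p of 5.9e-05 and 0.000118. Without replicate 1 of pre-symptomatic striatum in its place, Mgll was -1.34 in cortex (edgeR adjusted p = 7e-05) and -0.52 in striatum, where it did not pass (edgeR adjusted p = 0.0759). With the replicate number as a term, which in the HD libraries follows the sex read from the transcripts, it passed in cortex (-1.33, edgeR adjusted p = 0.0412) and not in striatum (-0.95, edgeR adjusted p = 0.125). The change of Mgll with age was more negative in HD than in WT mice by 1.08 (95% confidence interval of the difference -1.69 to -0.47). This difference did not pass (edgeR adjusted p = 0.203) and passed with DESeq2 (adjusted p = 0.0312). It was -1.25 without the library rich in oligodendrocyte and thalamus markers and -0.96 without replicate 1 of pre-symptomatic striatum. Of the 12 fits with 1 library left out, it passed in 1, the fit without the marker-rich library. Mgll shares 167 exon bases with the antisense gene Gm26588, which has no row of its own, and whether the counting used strand is not given in the sources used here.

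Dagla and Daglb encode the diacylglycerol lipases alpha and beta, which cut 2-AG from diacylglycerol. Daglb is known more from microglia and macrophages. Dagla (chromosome 19, 10245265 to 10304877, minus strand) measured 20.9 and 27.4 CPM in post-symptomatic HD striatum, 50.8 and 65.9 CPM in pre-symptomatic HD striatum, and 59.6 and 61.3 CPM in WT striatum of 13 and 8 weeks. In cortex the values were 46.1 and 56.2 CPM, 77.6 and 75.3 CPM, and 77.9 and 71.7 CPM. In both regions the post-symptomatic HD libraries of Dagla were below all others, whereas the pre-symptomatic ones were within or close to the WT values, with a change against WT at 8 weeks of 0.00 (95% confidence interval -0.47 to 0.47, edgeR adjusted p = 0.998).

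Daglb (chromosome 5, 143464584 to 143505942, plus strand) had the lower CPM of the pair. It measured from 19.6 to 21.6 CPM in post-symptomatic HD cortex, 26.0 to 31.3 CPM in pre-symptomatic HD cortex, and 36.0 to 37.0 CPM in WT cortex. In striatum it lay between 12.7 and 22.8 CPM, and the HD stages overlapped. Its change was -0.29 after onset (SE 0.19, edgeR adjusted p = 0.423) and -0.59 against WT at 13 weeks (SE 0.21, edgeR adjusted p = 0.115). The latter passed only when replicate 2 of post-symptomatic striatum was left out (-0.78, edgeR adjusted p = 0.0257), among the alternatives run. Daglb shares 2309 exon bases with Rac1 on the other strand. Rac1 measured from 265 to 375 CPM, so reads of Rac1 counted to Daglb could not be told apart from its own. Rac1 itself was 0.24 on the log2 scale after onset (edgeR adjusted p = 0.219) and 0.07 against WT at 13 weeks (edgeR adjusted p = 0.806).

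The remaining 2-AG hydrolases behaved unlike each other. Abhd6 (chromosome 14, 8002902 to 8056763, plus strand) measured 113.9 and 118.6 CPM in pre-symptomatic HD cortex, 70.3 and 59.7 CPM in post-symptomatic HD cortex, and 73.3 and 73.5 CPM in WT cortex of 13 and 8 weeks. In striatum it measured 57.3 and 81.0 CPM in pre-symptomatic HD mice, 47.2 and 41.9 CPM in post-symptomatic HD mice, and 39.9 and 43.1 CPM in WT mice. The pre-symptomatic HD libraries were thus the highest of each region, and the post-symptomatic ones stood next to the WT libraries. At 8 weeks Abhd6 was 0.67 higher in HD than in WT mice (95% confidence interval 0.31 to 1.03), at 158% of the WT level in cortex and 160% in striatum, with all 4 HD libraries above WT as for 15.4% of all genes. It missed the threshold with edgeR (adjusted p = 0.0617), where 0 of the 8 genes were called and 2.1% of all genes were (2049 at an unadjusted p under 0.05). Mgll was at -0.17, Daglb at -0.34, Abhd12 at -0.11, Faah at 0.33 and Napepld at 1.12 at this age, the last with a 95% confidence interval of -0.53 to 2.78. Abhd6 passed with DESeq2 (adjusted p = 0.0101) and without replicate 1 of pre-symptomatic striatum (0.76, edgeR adjusted p = 0.0319), and over the other alternatives the adjusted p ran from 0.0584 to 0.397. At 13 weeks Abhd6 was -0.01 (95% confidence interval -0.36 to 0.34, edgeR adjusted p = 0.983). In the test of whether the change with age differs between HD and WT mice, Abhd6 was at -0.68 (95% confidence interval -1.18 to -0.18, edgeR adjusted p = 0.346).

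Abhd12, a hydrolase that acts mainly on lysophosphatidylserine, was the steadiest of the 8 genes. It lies on chromosome 2 (150832493 to 150904741, minus strand). Its values spanned 139.6 to 165.7 CPM in the striatal libraries and 165.8 to 233.4 CPM in the cortical ones. In striatum the HD stages overlapped, and in cortex the post-symptomatic libraries (185.9 and 165.8 CPM) lay below the pre-symptomatic ones (223.1 and 214.5 CPM). Its change after onset was -0.13 (95% confidence interval -0.39 to 0.13, edgeR adjusted p = 0.548) and against WT at 13 weeks -0.20 (95% confidence interval -0.49 to 0.09, edgeR adjusted p = 0.425).

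The enzymes of anandamide were measured with less certainty. Napepld (chromosome 5, 21662901 to 21701396, minus strand) encodes the phospholipase D that releases anandamide from its membrane precursor. It had on average the lowest CPM of the 8 genes. Faah (chromosome 4, 115967145 to 116017926, minus strand) encodes the hydrolase that degrades anandamide. In pre-symptomatic HD striatum, Napepld measured 2.23 CPM in replicate 1 and 27.8 CPM in replicate 2, and Faah measured 7.73 and 34.2 CPM. Replicate 2, the library that stood apart, exceeded its partner by 3.64 and 2.15 on the log2 scale, more than for any other member.

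The direction of both genes in HD striatum hung on that library. With it, the change after onset in striatum was -1.08 for Napepld and -0.28 for Faah, and neither passed. Without it, 1 library stood for pre-symptomatic striatum, with its spread assumed to be that of the other groups. Napepld was then 1.66 higher after onset (edgeR adjusted p = 0.0483) and Faah 1.15 higher (edgeR adjusted p = 0.0153), while the number of genes called in striatum rose from 23 to 1054. With replicate 1 left out in its place, both were lower after onset, Napepld by -1.97 (edgeR adjusted p = 0.00298) and Faah by -0.99 (edgeR adjusted p = 0.0151), and the number of genes called was 1083. In post-symptomatic HD striatum Faah measured 15.8 and 18.3 CPM, above both WT libraries (8.49 and 13.6 CPM), and Napepld measured 5.41 and 8.66 CPM against 4.48 and 5.63 CPM. In cortex the post-symptomatic libraries of Faah were instead the lowest, with 44.3 and 37.4 CPM in post-symptomatic HD mice, 66.3 and 62.7 CPM in pre-symptomatic HD mice, and 68.8 and 61.3 CPM in WT mice. Faah and Abhd6 were the 2 members of 8 with both HD libraries of 13 weeks on opposite sides of WT in the 2 regions, as were 14.5% of all genes. Without the library that stood apart, the change of Faah in striatum differed from that in cortex by 1.79 (edgeR adjusted p = 0.0224), and without replicate 1 by -0.32 (edgeR adjusted p = 0.750). With both, the difference was 0.39 (95% confidence interval -1.50 to 2.28, edgeR adjusted p = 1.0). For Napepld the difference passed without replicate 1 (-1.97, edgeR adjusted p = 0.0473). Cortical Napepld was 13.9 and 16.2 CPM after onset and 16.0 and 13.8 CPM before it, with overlap, and 13.1 and 8.84 CPM in WT mice of 13 and 8 weeks.

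Within single regions of HD mice, no member passed in striatum, where 0.16% of the 14392 genes tested did, or in cortex, where 0.591% did. In striatum Dagla was -1.24 (edgeR adjusted p = 0.0753), Cnr1 -1.13 (0.156) and Abhd6 -0.60 (0.280). In cortex they were -0.59 (edgeR adjusted p = 0.270), -0.50 (0.477) and -0.85 (0.109). At an unadjusted p under 0.05 there were 1872 genes in striatum and 2061 in cortex. DESeq2 called 3 of the 8 genes in striatum and 2 in cortex, where it called 447 and 558 of all genes. With the replicate number as a term, Mgll passed in cortex and 0 members in striatum. Without replicate 2 of pre-symptomatic striatum, 1 library stood for that group, and many more of all genes passed, so only sizes of change are given here. In striatum Mgll was then -1.36, Cnr1 -1.34, Dagla -1.07, Abhd6 -0.35, Abhd12 -0.06, Daglb 0.01, Faah 1.15 and Napepld 1.66. In cortex Mgll was -1.32, Abhd6 -0.82 and Faah -0.64. Without replicate 1 in its place, striatal values were -0.52 for Mgll, -0.94 for Cnr1, -1.43 for Dagla and -0.84 for Abhd6. The others there were 0.15 for Abhd12, -0.19 for Daglb, -0.99 for Faah and -1.97 for Napepld. Cortical values were -1.34 for Mgll, -0.85 for Abhd6 and -0.67 for Faah. In striatum the signs of Faah, Napepld, Daglb and Abhd12 thus depended on which replicate was left out. In cortex 7 of the 8 genes had both post-symptomatic libraries below both pre-symptomatic ones, the exception being Napepld. Groups did not overlap there for 55.7% of all genes, in either direction. In striatum 4 of 8 did, Cnr1, Dagla, Mgll and Abhd6, where 36.8% of all genes did not overlap. These 4 were lower without overlap in both regions, as were 11.3% of all genes. The test of whether the regions changed unequally called 0 genes (0%, 519 at an unadjusted p under 0.05, and 17 genes but no member with DESeq2).

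**Figure D4:**
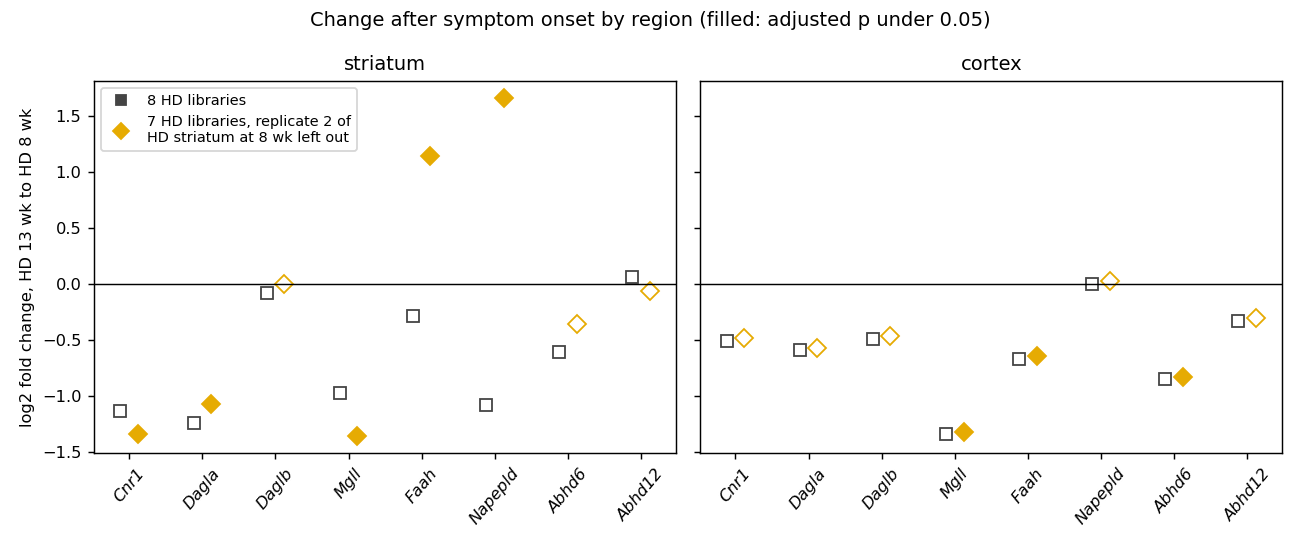
Log2 fold change of each gene in HD mice after against before onset, in striatum on the left and cortex on the right, fitted with all 8 HD libraries (squares) and with replicate 2 of pre-symptomatic striatum left out (diamonds). Filled symbols passed at an adjusted p under 0.05; no square is filled, and leaving the library out moves Faah and Napepld in striatum from below 0 to above it.

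No member was called for age among WT mice, where 2 genes of 14706 were (0.0136%, with 267 at an unadjusted p under 0.05 and 11 genes with DESeq2). Apart from Cnr1, their changes lay between -0.12 and 0.20. When the change with age was compared between HD and WT mice, again no member was called and 0.116% of genes were (1312 at an unadjusted p under 0.05), whereas DESeq2 called Mgll alone of the 8 genes. Beside Cnr1, Mgll and Abhd6, the differences in change were -0.94 for Dagla, -0.26 for Daglb, -0.35 for Faah, -0.76 for Napepld and -0.09 for Abhd12.

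Of the 8 genes 6, all of them enzymes, were lower in striatum than in cortex over all groups. Faah differed most, by -1.81 (SE 0.35, edgeR adjusted p = 0.00467), followed by Mgll at -0.83 (SE 0.13, edgeR adjusted p = 0.000864) and Abhd6 at -0.71 (SE 0.11, edgeR adjusted p = 0.000647). Dagla was -0.59 (edgeR adjusted p = 0.0133), Daglb -0.58 (edgeR adjusted p = 0.0136) and Abhd12 -0.39 (edgeR adjusted p = 0.00801). Among all genes, 12.1% were called lower in striatum and 8.51% higher. The Daglb call was lost without either WT library of 13 weeks (edgeR adjusted p = 0.0528 without striatum and 0.0554 without cortex). Cnr1 did not differ detectably over all groups (-0.06, 95% confidence interval -0.61 to 0.49, edgeR adjusted p = 0.902). Its ratio of striatum to cortex on the log2 scale was 0.98 in WT mice of 13 weeks, 0.53 in WT mice of 8 weeks, -0.15 in pre-symptomatic and -0.82 in post-symptomatic HD mice, so that Cnr1 was higher in striatum in both WT ages and lower there in post-symptomatic HD mice. The pre-symptomatic HD regions overlapped, with 34.1 and 45.0 CPM in striatum and 41.2 and 46.3 CPM in cortex. Without the library that stood apart their ratio turned to 0.04, and without replicate 1 of that striatum it was -0.36. Napepld was -0.72 (edgeR adjusted p = 0.340). It was -1.42 without replicate 2 of pre-symptomatic striatum, where it passed, and -0.53 without replicate 1, where it did not.

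The wider pathway was read from 30 other genes of receptors, synthesis, breakdown, lipid carriers and the signals that drive 2-AG release. After onset 7 of the 24 that could be tested were lower in HD mice and 0 were higher, where 4.53% and 1.93% of all genes were, with a median of -0.61 against 0.00 over all genes. Those that changed most were Pla2g4e (-1.89, edgeR adjusted p = 0.0169), the calcium-dependent acyltransferase that makes the precursor of anandamide, and Camk2a (-1.29, edgeR adjusted p = 0.0110), a synaptic kinase that acts on diacylglycerol lipase alpha. The other named ones were Homer1 (-0.92, edgeR adjusted p = 0.0373), which links group I metabotropic glutamate receptors to diacylglycerol lipase alpha, and Plcb1 (-0.92, edgeR adjusted p = 0.0486), a phospholipase that supplies diacylglycerol. By role, 3 of 8 synthesis genes, 3 of 8 driving signals and 1 of 3 carriers were lower, and 0 of 4 breakdown genes and 0 of 1 receptor partner. Against WT at 13 weeks 3 of 25 were lower and 0 higher, where 4.26% and 3.1% of all genes were. The 3 were Pla2g4e (-2.04, edgeR adjusted p = 0.00659), Camk2a (-0.83, edgeR adjusted p = 0.0471) and Gde1 (-0.72, edgeR adjusted p = 0.0143), a phosphodiesterase of another route to anandamide.

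Camk2a in cortex measured 1419 and 1379 CPM in post-symptomatic HD mice, 4308 and 4266 CPM in pre-symptomatic HD mice, and 2634 and 2974 CPM in WT mice of 13 and 8 weeks. Pre-symptomatic HD cortex thus lay above WT and post-symptomatic HD cortex below it, and the fall after onset in cortex passed on its own (-1.63, edgeR adjusted p = 0.0447). No pathway gene was called at 8 weeks, for age in WT mice, for the difference in change with age between genotypes, or for HD striatum alone. Between regions, 10 of 25 were lower in striatum and 1 higher, where 12.1% and 8.51% of all genes were. The 4 largest of the differences were Ptgs2 (-2.42, edgeR adjusted p = 0.0412), Chrm3 (-2.01, edgeR adjusted p = 9.6e-06), Camk2a (-1.33, edgeR adjusted p = 0.000116) and Homer2 (-1.23, edgeR adjusted p = 0.00852). The receptor genes Cnr2, Gpr55, Gpr18 and Trpv1 had at most 9 counts in any library and could not be tested.

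Over the 12 libraries, each taken relative to the mean of its region, the genes most like Cnr1 among 10778 with a mean of at least 5 CPM were Hebp1 (r = 0.953), Cap1 (r = 0.953), Smarcd3 (r = 0.949), Kcnab1 (r = 0.946) and Pitpnm3 (r = 0.939). Among the enzymes Dagla stood at r = 0.83 and Mgll at r = 0.75, Daglb at 0.48 and Abhd12 at 0.37, while Abhd6 stood at 0.00, Napepld at -0.24 and Faah at -0.35. The libraries share genotype, stage and marker content, and these values are a description.

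Markers of cell types moved with some of the groups. After onset, 3 of 8 tested markers of striatal projection neurons, 3 of 9 interneuron markers and 1 of 6 astrocyte markers were lower in HD mice, with 0 higher, where 4.53% and 1.93% of all genes were. None of the markers of cortical projection neurons (7), oligodendrocytes (8), microglia (7), thalamus (5) or choroid plexus (4) was called. Against WT at 13 weeks, 4 of 8 striatal, 4 of 9 interneuron and 1 of 7 microglia markers were lower, where 4.26% of all genes were, and 0 of the others were called. The 9 interneuron markers include Gad1, Gad2 and Slc32a1, which striatal projection neurons also express. Counts over both regions therefore do not set interneurons apart from those neurons. In cortex, interneuron markers summed to 494 and 498 CPM in post-symptomatic HD mice, 1218 and 1323 CPM in pre-symptomatic HD mice, and 1455 and 1518 CPM in WT mice. In striatum they summed to 995 and 1164 CPM, 1444 and 1516 CPM, and 1685 and 1752 CPM. The markers of cortical projection neurons in cortex summed to 778 to 803 CPM, 1260 to 1314 CPM and 1417 to 1428 CPM. Astrocyte markers in cortex summed to 4412 CPM in both pre-symptomatic HD libraries, 2268 to 2484 CPM in the post-symptomatic ones and 2972 to 3068 CPM in WT mice, so that these and Abhd6 were both highest in pre-symptomatic HD cortex. The part of these cells in the levels of the 8 genes was not tested.

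**Figure D5:**
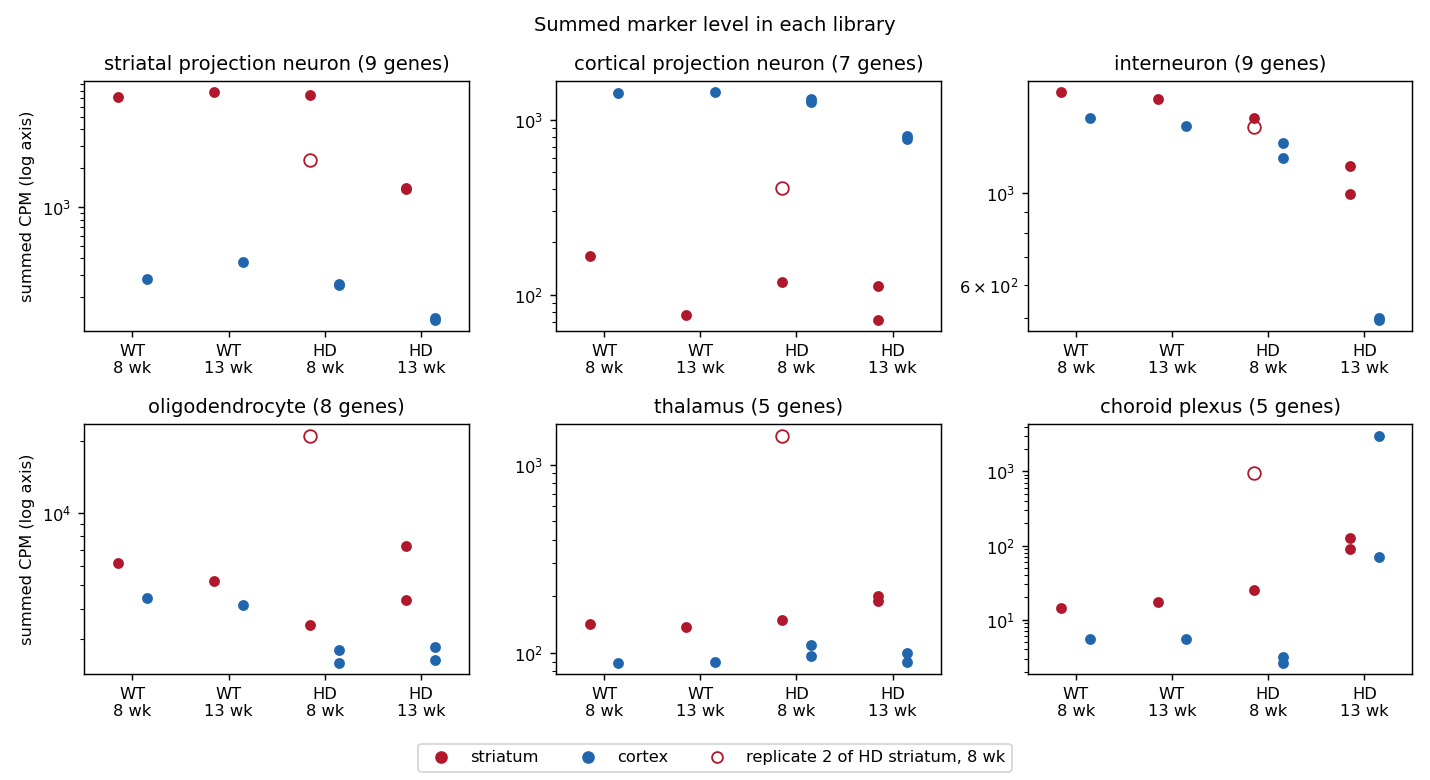
Summed CPM of the marker genes of 6 cell types or tissues (vertical log axes) in each library by genotype and age, with striatum in red and cortex in blue. The open circle, replicate 2 of pre-symptomatic HD striatum, stands above the other striatal libraries for oligodendrocyte (21020 CPM), thalamus and choroid plexus markers, and among the striatal libraries those of post-symptomatic HD mice are lowest for striatal projection neuron markers (1386 and 1411 CPM).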

How the data were processed

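RNA of the striatum and cortex was sequenced in 12 QuantSeq libraries. The authors deposited raw read counts for each gene symbol and library, without normalization. The submitters' processing notes name Bowtie2, bedtools and the mm10 build, with no versions. The annotation, the counting rule and its strand setting are not given in the sources used here. Reads shared with an overlapping gene may therefore sit in either row.

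From the deposited counts, edgeR 4.0.16 (R 4.3.3) gave TMM-scaled CPM, log2 fold changes and p-values by the robust quasi-likelihood test, with filterByExpr at a minimum count of 10 and Benjamini-Hochberg adjustment over all genes tested (threshold 0.05). The fit of HD stages used the 8 HD libraries and a region term, or a mean for each group. The fit of genotypes and regions used all 12 libraries, a region term and 4 combinations of genotype and age. Confidence intervals are at the 95% level. The labels do not say whether both regions of a number come from 1 mouse, or whether replicates are separate mice, and the fits treat libraries as independent, so p-values measure the spread between these samples.

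The 8 genes, the 30 pathway genes and the marker lists were chosen with earlier results of these data known. Each of the 8 genes is named in every comparison, except that only some are given values within single regions and for the difference of regional changes. Of the pathway genes those past the threshold are named, up to the 4 largest changes. Rac1, Gm26588, Rn45s and the markers Gad1, Gad2 and Slc32a1 were named outside this rule. Camk2a levels, Drd2 and Cnr2 with the other uncounted receptors were picked with their values in view. Likeness to Cnr1 is Pearson's r of log2 CPM (prior count 2). Gene positions are from GENCODE M21 (GRCm38). Alternatives were DESeq2 1.42.0, limma 3.58.1 voom with a random block, upper-quartile normalization, no filter or at least 1 CPM in every library, no Rn45s, a sex term, a replicate block and each HD library left out; leaving out each WT library and a mean for each of 8 groups were added after the data were seen. Tested on simulated data with 200 genes changed by 1.5 on the log2 scale, edgeR recovered 144 among 13661 genes for HD stages with 5.88% of calls false, 121 among 14378 for HD against WT at 13 weeks with 4.72% false and 149 among 14383 for regions with 2.61% false. DESeq2 recovered 160, 140 and 162, with 18.8%, 21.3% and 12.9% false, and voom 145, 131 and 146, with 7.05%, 13.8% and 1.35% false. The simulated libraries were independent and drawn with edgeR's own estimates of spread, with no library that stood apart. These shares therefore do not give the false calls of each tool in the measured data.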

Additional observations from a re-analysis of the deposited data

Results flagged for a closer look

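The HD libraries lay on opposite sides of the WT library in striatum and cortex for 2 of the 8 genes at 13 weeks, where 14.5% of all genes did so, and for 1 of the 8 at 8 weeks, where 19.1% did. Each region had 2 HD libraries and 1 WT library, and the difference between regions was tested in the fit with a mean for each of the 8 groups, which was added after the data were seen. At 13 weeks both HD libraries of Faah were above WT in striatum and below WT in cortex, with a difference of 1.75 on the log2 scale (SE 0.999, edgeR adjusted p = 1.0). Abhd6 showed the same signs at 13 weeks, with a difference of 0.33 (SE 0.36, edgeR adjusted p = 1.0). At 8 weeks both HD libraries of Cnr1 were below WT in striatum and above WT in cortex, with a difference of -0.68 (SE 0.48, edgeR adjusted p = 0.898). None of the 3 differences passed.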

How the results depend on the processing

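Of 1224 values of the 8 genes under alternatives, 1115 kept their direction and their side of the threshold, 19 lost the call, 34 gained one and 56 changed sign. The 12 called values (of 7 genes) kept their direction in all 213 of their alternatives and the call in 194. Only 2 of the changed signs came with an adjusted p under 0.05, those of Faah and Napepld in HD striatum without replicate 2 of pre-symptomatic HD striatum. Where leaving out a library leaves 1 in a group, that library is assumed to vary like the others. The cause of these shifts was not tested. The lowest count of any of the 8 genes in a library was 19, for Napepld in replicate 1 of pre-symptomatic HD striatum, and replicate 2 held 258 counts of it.

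The simulation, in which DESeq2 made more false calls, was drawn with edgeR's own estimates of spread. It therefore does not tell which DESeq2 calls below are false. DESeq2 called 1680 genes for HD stages over both regions, 447 in striatum (3 of the 8 genes), 558 in cortex (2), 17 for the difference of regions, 1813 for HD against WT at 13 weeks, 674 at 8 weeks (1), 11 for age in WT mice and 231 for the contrast of HD and WT changes with age (1). Without a filter the counts were 163 in striatum (1 of the 8 genes), 251 in cortex (1), 1 for the difference of regions and 30 for the contrast of HD and WT changes with age. Upper-quartile normalization gave 45 genes in cortex and 5 for the contrast of HD and WT changes with age. Sex as a term gave 0 genes for age in WT mice and 0 for the contrast of HD and WT changes with age. A mean for each of 8 groups gave 130 genes at 8 weeks. The labels tie the replicate numbers to no shared mouse or batch, though in HD mice they follow the sex read from the transcripts. The deviations of same-numbered libraries correlated at 0.0757 to 0.338 between HD groups, above 0.1 in 4 of 6 pairs of groups, and the replicate block is an alternative only. It gave 36 genes in striatum, and in cortex 1 of the 8 genes (Mgll, -1.33, edgeR adjusted p = 0.0412) and Napepld at -0.059.

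With 1 library left out at a time, the genes called ran from 211 to 1518 for HD stages over both regions (1 to 4 of the 8 genes), 0 to 1083 in striatum (0 to 5), 0 to 1202 in cortex (0 to 3), 0 to 168 for the difference of regions (0 to 1), 29 to 1834 for HD against WT at 13 weeks (0 to 3), 0 to 444 at 8 weeks (0 to 1), 0 to 5 for age in WT mice, 0 to 211 for the contrast of HD and WT changes with age (0 to 1) and 2043 to 3709 for regions (5 to 7).

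For HD against WT at 13 weeks Faah was 0.0072 with DESeq2, 0.038 with upper-quartile normalization, 0.26 with sex as a term and 0.12 with a mean for each of 8 groups, and Abhd6 was 0.043 with upper-quartile normalization and 0.011 with sex. At 8 weeks Dagla was -0.0038 with upper-quartile normalization, -0.00029 without a filter, -0.0039 without Rn45s and -0.12 with sex. With sex, age in WT mice gave -0.22 for Dagla, 0.19 for Mgll, -0.85 for Napepld and 0.038 for Abhd12, and the contrast of HD and WT changes with age gave 0.013 for Daglb, 0.21 for Faah and 0.43 for Napepld. The sex term of this fit comes from the HD libraries alone, so these values do not part age from sex within WT mice. With 1 library left out, Napepld ran from -0.82 to 0.52 for HD stages over both regions, -1.97 to 1.66 in striatum, -0.12 to 0.11 in cortex, -1.97 to 1.64 for the difference of regions, -0.044 to 0.95 against WT at 13 weeks, -0.38 to 0.61 with age in WT mice and -1.15 to 0.32 for the contrast of HD and WT changes with age. Faah ran from -0.99 to 1.15 in striatum, -0.32 to 1.79 for the difference of regions, -0.59 to 0.84 against WT at 13 weeks, -0.13 to 0.58 at 8 weeks, -1.01 to 0.42 with age in WT mice and -0.90 to 0.53 for the contrast of HD and WT changes with age. Cnr1 ran from -0.49 to 0.22 at 8 weeks, -0.032 to 1.22 with age in WT mice and -0.28 to 0.15 between regions. Dagla ran from -0.20 to 0.23 at 8 weeks and -0.17 to 0.26 with age in WT mice, Daglb from -0.47 to 0.23 in striatum and -0.19 to 0.10 with age in WT mice, Abhd6 from -0.11 to 0.094 at 13 weeks and -0.16 to 0.044 with age in WT mice, Abhd12 from -0.064 to 0.15 in striatum, and Mgll from -0.042 to 0.82 for the difference of regions.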
